A study of Rattus norvegicus with 12 samples.

Results

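The respiratory chain genes are those that encode the protein complexes of oxidative phosphorylation, both on mitochondrial DNA and in the nucleus. They were chosen by name from the deposited tables, as all names that begin with Mt-, Nduf, Uqcr, Atp5 or Cox4 to Cox8, together with the succinate dehydrogenase genes Sdha, Sdhb, Sdhc and Sdhd. This gave 102 of 28111 gene names, of which 13 were mitochondrially encoded and 89 nuclear. Of these, 95 had a mean of at least 1 TPM (a transcript's share of all transcripts, corrected for its length) over the 12 libraries and were tested, namely all 13 mitochondrial and 82 nuclear genes.

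RNA was sequenced from primary cultures of newborn rat cortex, which hold neurons and glia, at 10 days in vitro, with 3 libraries in each of 4 groups. The intact control (IC) received nothing. The EV group received extracellular vesicles of glial progenitor cells, which had been differentiated from human induced pluripotent stem cells, at 10 µg/mL. The 3_100 group received the proteins of 3 to 100 kDa that these cells release, at 15 µg/mL, and the 3_many group their total secretome at 45 µg/mL. RNA was collected 4 h after each addition. The doses differ in mass, so the groups are compared as given and not as equal doses. The cultures of all groups, the control included, were prepared in one way, with cytosine arabinoside to limit the growth of glia. One set of 3 control libraries served all 3 comparisons with IC, which are therefore not independent. The methods of the study state in general terms that experiments were repeated on unrelated cultures, but neither they nor the labels tie this to the sequenced libraries. The p-values therefore measure the spread between libraries, which may be partly or wholly technical.

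Electrons from NADH enter the chain at complex I and those from succinate at complex II. They pass through complex III to complex IV, which reduces oxygen, and the proton gradient built on the way drives ATP synthase. Mitochondrial DNA encodes a few hydrophobic core subunits of complexes I, III, IV and ATP synthase, while the nucleus encodes all of complex II, the remaining subunits and the factors that assemble them. Neurons depend on this pathway for most of their ATP, and the stability of the mitochondrial membrane potential under glutamate was one of the questions of the study. The question put to these libraries is whether the transcripts of the machinery itself differed after the secreted fractions were added.

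Of the 95 genes tested, only the complex I assembly factor Ndufaf4 passed an FDR of 0.05 in a comparison with the control. Over all 12861 genes 2.85% passed in 3_100, 1.85% in 3_many and 0.0933% in EV. It was about 2-fold higher with the 3–100 kDa proteins and with the total secretome, and the mean of its EV libraries lay between. Both pairwise calls were lost with the replicate number as a block (adjusted p = 0.107 and 0.104), and each was lost in 4 of the 6 fits that left out 1 library. The F test over the 4 groups called Ndufaf4 with and without the block. No mitochondrially encoded gene and no subunit of complexes I to IV or of ATP synthase passed that threshold in any of the 6 comparisons with all libraries in the fit. The spread between libraries of one group was wide for most of these genes, and it limits what could have been seen.

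The cultures matched their label. All 10 neuronal and all 7 astrocyte markers were above the 1 TPM filter, while none of the 7 microglial, 5 fibroblast or 4 matched endothelial markers was. Of the oligodendrocyte lineage markers 7 of 9 passed, and of the erythroid markers 1 of 4. The summed level of the microglial markers was between 0.425 and 3.12 TPM. TPM carries no read depth, so the depth behind these values is unknown. Since Rps6, which every cell uses, stands at 0 throughout, a listed 0 is not read as absence.

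The 13 mitochondrial genes together held 6.39% ± 1.69 of all TPM in IC (SD, n = 3), 6.70% ± 1.29 in EV, 7.11% ± 1.42 in 3_100 and 7.15% ± 1.19 in 3_many. In IC the 3 libraries summed to 77919, 45168 and 68587 TPM. In EV they summed to 52405, 71791 and 76897 TPM, in 3_100 to 60316, 65933 and 87156 TPM, and in 3_many to 76426, 57931 and 80213 TPM. The groups overlapped, and the lowest library of all was the second control. In bulk RNA, fewer cells of a type and less RNA per cell cannot be told apart.

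The 82 tested nuclear genes together held 2.27% ± 0.770 of TPM in IC, 2.21% ± 0.551 in EV, 2.07% ± 0.306 in 3_100 and 2.06% ± 0.160 in 3_many. The IC libraries summed to 20032, 31324 and 16600 TPM. Those of EV summed to 28401, 19887 and 18072 TPM, those of 3_100 to 24226, 19273 and 18629 TPM, and those of 3_many to 22275, 20549 and 19071 TPM. The control held both the highest and the lowest of the 12 values, so every treated library lay inside the range of the control.

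**Figure D1:**
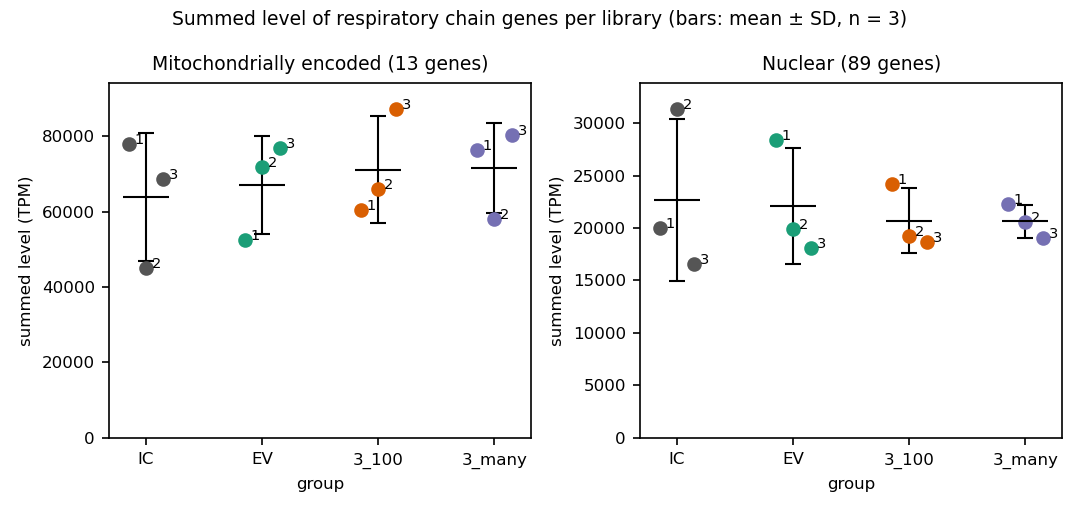
Summed level in TPM (vertical axes, from 0) of the mitochondrially encoded genes (left) and the nuclear genes (right) in each group, with each point a library marked by its replicate number and the bars the mean ± SD (n = 3). The nuclear sums cover the 82 tested genes, although the panel title gives 89. The second control library is the lowest of all 12 on the left at 45168 TPM and the highest of all 12 on the right at 31324 TPM.

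For both genomes the libraries of one group thus lay farther apart than the group means did. Of the 82 nuclear genes tested, 64 had their highest value in IC replicate 2, while 44 had their lowest value in IC replicate 3. Of the 13 mitochondrial genes, 10 were lowest in IC replicate 2. Over all 12861 genes tested, IC replicate 2 was the highest library for 18.3% and the lowest for 13.1%, and IC replicate 3 was the lowest for 16.8%. Ribosomal protein genes showed a like distribution, with 59 of 87 highest in IC replicate 2 and 67 of 87 lowest in IC replicate 3. The summed mitochondrial level was 1.44 times the nuclear level in IC replicate 2, 1.85 times in EV replicate 1 and 2.49 times in 3_100 replicate 1, the 3 lowest ratios, and between 2.82 and 4.68 times in the other 9 libraries. These were also the 3 libraries with the highest nuclear sums. The lowest of these ratios in 3_many (2.82) was near that of 3_100 replicate 1, and in the mitochondrial sums of 3_100 it was replicate 3 that lay farthest from the others. The results below are also given without the 3 libraries of highest nuclear sum where that matters.

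Some genes went against this pattern. They were picked out after their values were seen. Ndufs1, the largest core subunit of complex I, had 76.1, 61.8 and 74.1 TPM in IC and 55.8, 71.9 and 71.3 TPM in EV, so that IC replicate 2 and EV replicate 1 were the lowest of their groups. Uqcrc2, a core protein of complex III, had 168, 142 and 151 TPM in IC and 128, 160 and 167 TPM in EV, with the same libraries lowest. Among the mitochondrial genes, Mt-nd6, the one protein gene on the light strand, had 918, 1348 and 1165 TPM in IC and was there highest in replicate 2.

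**Figure D2:**
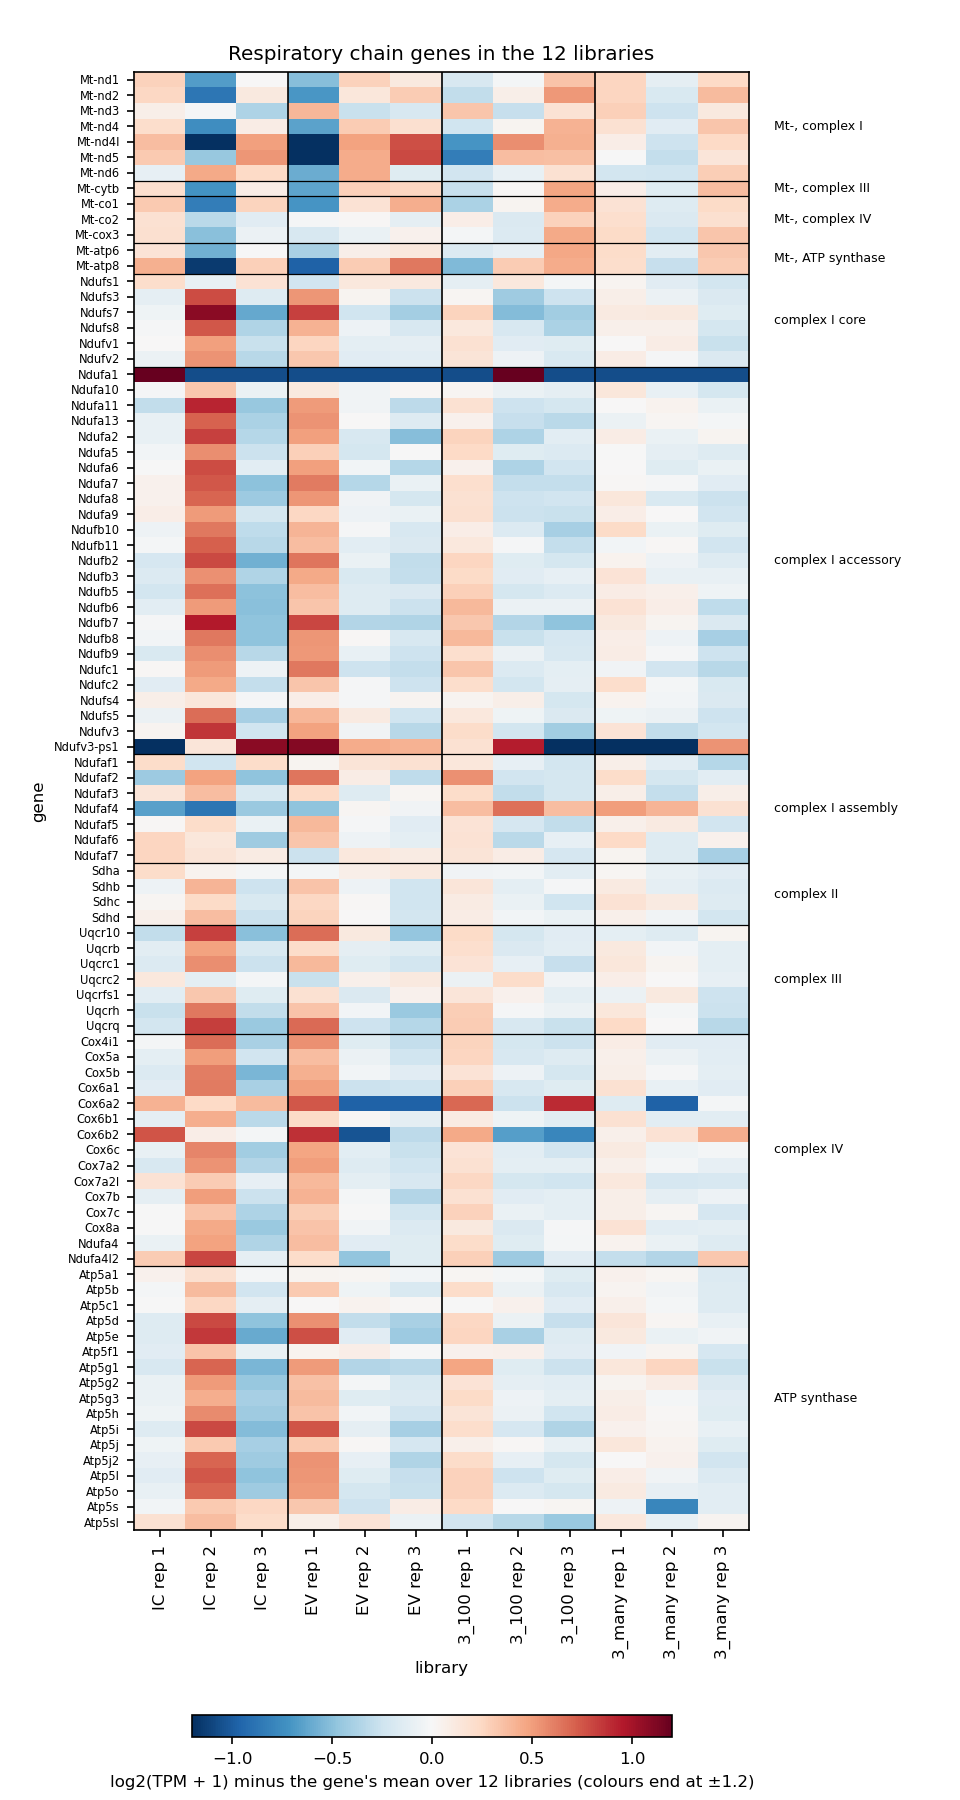
Level of the tested genes except 1 core subunit of complex I (rows, by complex) in the 12 libraries (columns, by group), as log2(TPM + 1) minus the gene's mean over the libraries, with colours that end at ±1.2. IC replicate 2 and EV replicate 1 are red over most nuclear rows and blue over most mitochondrial rows, and the row of Ndufaf4 is blue in the 3 IC libraries and red in the 3_100 and 3_many libraries.

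Among the mitochondrial transcripts the mean level over the 12 libraries was highest for Mt-cox3 at 9830 TPM, followed by Mt-atp8 at 9785, Mt-co2 at 9579, Mt-atp6 at 8676, Mt-nd3 at 7474 and Mt-co1 at 6116 TPM. The lower part of the order was Mt-cytb at 3920, Mt-nd2 at 3471, Mt-nd4 at 2946, Mt-nd1 at 2839, Mt-nd4l at 1719, Mt-nd5 at 1032 and Mt-nd6 at 1008 TPM. Neighbours in this order overlapped in their ranges over the libraries. Mt-atp8 overlaps Mt-atp6 on the genome, as Mt-nd4l overlaps Mt-nd4, so how reads were shared within each pair is uncertain. The highest library exceeded the lowest by between 1.52-fold for Mt-co2 and 4.47-fold for Mt-nd5, with a median of 2.24-fold over the 13 genes. The corresponding median was 1.95-fold over the 79 tested nuclear genes that were above 0 in every library.

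No mitochondrial gene reached an unadjusted p of 0.05 in limma in any of the 6 comparisons. Over all genes between 2.84% and 17.2% did, depending on the comparison. The median log2 fold change over the 13 genes was 0.07 for EV against IC, 0.23 for 3_100 against IC and 0.24 for 3_many against IC, beside −0.01, −0.02 and −0.01 over all genes tested. In each comparison 11 of the 13 values were above 0 and those of Mt-nd5 and Mt-nd6 were below. The largest value was that of Mt-nd2, a proton-pumping subunit of complex I, at 0.29 (SE 0.394) in 3_100 and 0.33 (SE 0.358) in 3_many. Its libraries had 3984, 1832 and 3638 TPM in IC, 2728, 3522 and 4791 TPM in 3_100 and 3987, 2956 and 4364 TPM in 3_many, which overlap throughout. The medians changed sign when IC replicate 2 was left out. Without IC replicate 2 the median over the mitochondrial genes was −0.20 for EV, −0.06 for 3_100 and −0.03 for 3_many. The 95% interval of the fold change lay within 2-fold in either direction for 6 of 13 genes in EV, 4 of 13 in 3_100 and 5 of 13 in 3_many, so changes of up to about that size were not detectable for the others.

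Genes were counted at an FDR under 0.05 and by a looser criterion, in which the fold change exceeds 1.5 and p stays under 0.05 before adjustment. For EV against IC neither criterion was met by any of the 95 genes, mitochondrial genes included, and none reached an unadjusted p under 0.05 either. Over all 12861 genes the same limma fit called 0.0933% at the FDR threshold, 2.21% at the looser criterion and 2.97% at the unadjusted p alone. Without EV replicate 1 the looser criterion was met by 3 of the 95 genes, beside 3.45% of all genes in that fit, and without IC replicate 3 by 1, beside 2.12%.

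For 3_100 against IC, 1 of the 95 genes passed the FDR threshold and the same 1 the looser criterion, while 2 had an unadjusted p under 0.05. The shares over all genes were 2.85%, 9.8% and 17.2%. For 3_many against IC the counts were 1, 2 and 3 of 95, beside 1.85%, 7.96% and 16.9% of all genes. Libraries that did not overlap between the groups were found for 1 member in EV against IC, 3 in 3_100 and 5 in 3_many, beside 5.09%, 20.3% and 20.1% of all genes. Each of these member counts is a smaller share of the 95 genes than the share over all genes. Whether the shares differ was not tested.

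The median log2 fold change over the 82 nuclear genes was −0.04 for EV, −0.07 for 3_100 and −0.07 for 3_many. Values were below 0 for 57, 63 and 67 of the 82 genes, beside 6666, 6784 and 6682 of all 12861 genes tested. This balance again turned with the second control library, without which the medians were 0.21, 0.15 and 0.15. For 3_many against IC without IC replicate 2, 35 of the 95 genes had an unadjusted p under 0.05, 31 of them higher, and 2 passed the FDR threshold. Those were Ndufaf4 and the complex I accessory subunit Ndufb5, which rose by a log2 fold change of 0.40 (SE 0.0635, adjusted p = 0.0485) in that fit. Over all genes the share in the same fit was 27.0% at the unadjusted p and 2.93% at the FDR threshold. Ndufb5 had 111, 205 and 91.6 TPM in IC and 138, 135 and 125 TPM in 3_many, so with all control libraries its groups overlapped.

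By role, the 7 core subunits of complex I were all below 0 in the 3 comparisons with IC, with medians of −0.08, −0.09 and −0.12 for EV, 3_100 and 3_many, and none passed an unadjusted p of 0.05. The 25 accessory subunits of complex I had medians of −0.03, −0.11 and −0.13 with Ndufa1 included, and likewise none passed. Ndufb8, the accessory subunit with the highest level (mean 304 TPM), had log2 fold changes of 0.07 (SE 0.316), −0.03 (SE 0.296) and −0.15 (SE 0.258). Ndufa1 is listed at 93.4 TPM in IC replicate 1, at 71.8 TPM in 3_100 replicate 2 and at 0 in the other 10 libraries, so no fold change is given for it. The 4 genes of complex II, which also works in the citric acid cycle, had medians of −0.04, −0.05 and −0.09. Sdhb, its iron-sulphur subunit, had the highest mean of them at 169 TPM, with log2 fold changes of −0.03 (SE 0.226), −0.00 (SE 0.184) and −0.07 (SE 0.164). The catalytic subunit Sdha had 88.7, 78.1 and 75.1 TPM in IC and 73.3, 74.0 and 69.3 TPM in 3_100. These do not overlap, but the log2 fold change was −0.13 (SE 0.0962, adjusted p = 0.589).

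The 7 complex III genes had medians of −0.04, −0.02 and −0.06. Uqcrh, the hinge protein next to cytochrome c1, was the highest of them at a mean of 322 TPM and had log2 fold changes of −0.08 (SE 0.318), 0.08 (SE 0.266) and −0.05 (SE 0.256). The 15 complex IV genes, with Ndufa4 counted among them since its protein is a complex IV subunit, had medians of −0.04, −0.02 and −0.03. Cox6c was the highest at a mean of 933 TPM and its log2 fold changes were −0.01, −0.06 and 0.00. The 17 genes named for ATP synthase had medians of −0.02, −0.05 and −0.06. Atp5b, the catalytic beta subunit, was the highest nuclear gene at a mean of 1100 TPM, with 1069, 1416 and 928 TPM in IC and 1115, 1056 and 977 TPM in 3_many. These groups overlapped, and its log2 fold changes were −0.02 (SE 0.225) in EV, −0.02 (SE 0.189) in 3_100 and −0.08 (SE 0.168) in 3_many.

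**Figure D3:**
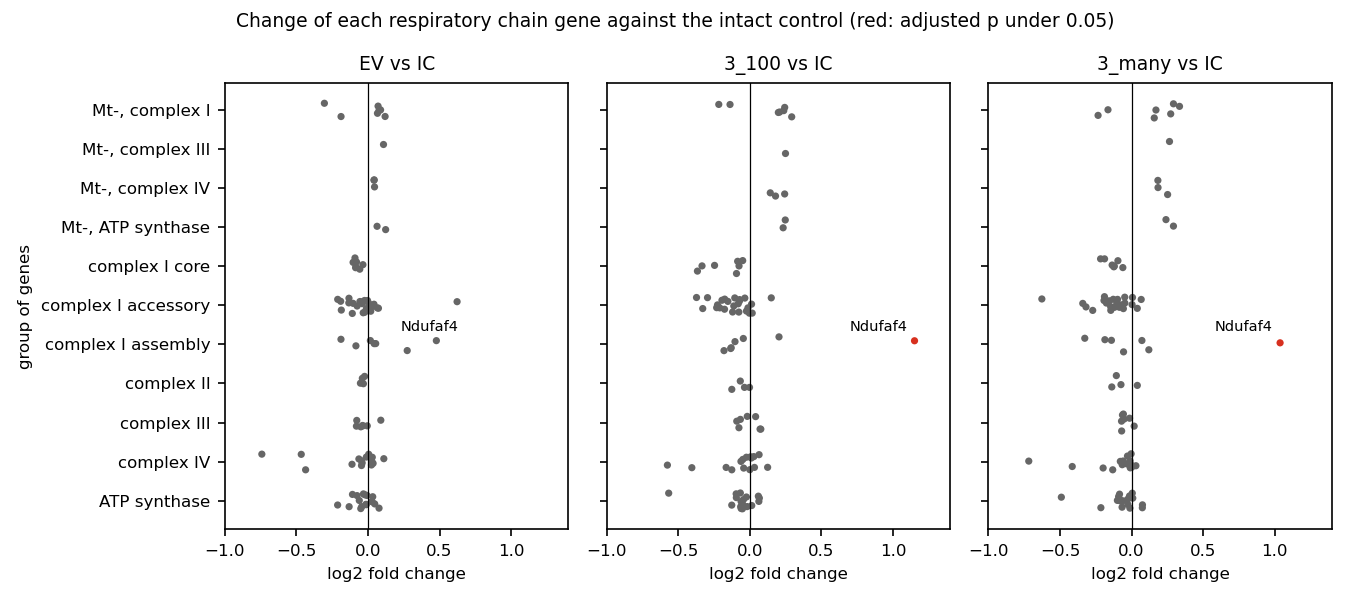
Log2 fold change (horizontal axes) of each tested gene except Ndufa1 against the intact control, by complex (vertical axis), for EV, 3_100 and 3_many, with genes at an adjusted p under 0.05 in red. Ndufaf4 is the 1 red point in 3_100 (1.15) and in 3_many (1.04), and no point is red in EV, where Ndufaf4 stood at 0.48.

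Isoforms that are known from other tissues stayed low. The heart and muscle form Cox6a2 had a mean of 1.16 TPM beside 709 TPM for the ubiquitous Cox6a1. Its IC libraries had 1.61, 1.32 and 1.55 TPM and those of 3_many 0.760, 0 and 0.928 TPM, with a log2 fold change of −0.72 (SE 0.287, adjusted p = 0.281). At this level 1 listed 0 carries much of the value, and EV held 2.28, 0 and 0 TPM. The 3 muscle markers summed to at most 5.72 TPM in any library. The oxygen-dependent form Cox4i2 was at 0.753 TPM beside 792 TPM for Cox4i1, and Ndufa4l2 at 2.57 TPM beside 452 TPM for Ndufa4. Cox8b was above 0 in 1 library only, and Cox7b2, Cox8c, Cox6c1 and Ndufb4l1 are listed at 0 in all 12. The genes of the c ring of ATP synthase, which encode one mature protein, had means of 202 TPM for Atp5g1, 323 TPM for Atp5g2 and 557 TPM for Atp5g3, in the same order in every group mean. Of Cox8a and Cox7a2, which had means of 600 and 578 TPM, neither moved by more than 0.04 on the log2 scale. Atpif1, the inhibitor of ATP synthase and no member by name, had a mean of 499 ± 163 TPM in IC (SD, n = 3) and log2 fold changes of 0.04, 0.03 and −0.01.

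Among the 7 assembly factors of complex I, 1 passed the FDR threshold. Ndufaf4, which acts with Ndufaf3 early in the assembly of complex I, had 16.8, 14.2 and 19.6 TPM in IC. It had 35.3, 43.2 and 35.1 TPM in 3_100, 38.5, 36.3 and 30.7 TPM in 3_many and 19.0, 27.4 and 26.1 TPM in EV. Every 3_100 and 3_many library was above every IC and EV library, while EV replicate 1 lay inside the range of the control. The means were 16.9 ± 2.71 TPM in IC, 24.2 ± 4.52 in EV, 37.9 ± 4.61 in 3_100 and 35.2 ± 4.02 in 3_many (SD, n = 3).

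Ndufaf4 rose in 3_100 by a log2 fold change of 1.15 (SE 0.175, 95% interval 0.73 to 1.57, adjusted p = 0.0247 in limma). In 3_many it rose by 1.04 (SE 0.163, 0.64 to 1.43, adjusted p = 0.0404). With the replicate number as a block the adjusted p was 0.107 for 3_100 and 0.104 for 3_many at the same fold changes, so neither call held. The study names a day of the experiment as a covariate in its ordination of the control and EV libraries, but the labels do not tie days to replicate numbers. In EV the value was 0.48 (SE 0.207, −0.02 to 0.98, unadjusted p = 0.058, adjusted p = 1). Leaving out each library in turn kept the log2 fold change between 1.03 and 1.31 in 3_100 and between 0.92 and 1.19 in 3_many. The adjusted p then ranged from 0.0311 to 0.137 and from 0.0389 to 0.202, and in both comparisons it stayed under 0.05 only when the library left out was IC replicate 2 or IC replicate 3. Without the 3 libraries of highest nuclear sum it was 0.0464 for 3_100 and 0.0457 for 3_many, at log2 fold changes of 1.10 and 0.92. For 3_many this is the same fit as that without IC replicate 2.

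Between the treated groups, Ndufaf4 was lower in EV than in 3_100 by a log2 difference of −0.66 (95% interval −1.04 to −0.28, adjusted p = 0.242) and than in 3_many by −0.55 (−0.90 to −0.19, adjusted p = 0.435). Their libraries did not overlap, but neither difference passed the FDR threshold. These are unpaired fits. With the replicate block the SE was 0.0908 and the adjusted p 0.0687 for EV against 3_100. For EV against 3_many the block gave an SE of 0.152 and an adjusted p of 0.467, so neither passed there either. Between 3_many and 3_100 it was −0.10 (−0.34 to 0.13, adjusted p = 1), an interval that leaves out a difference of 1.5-fold. In EV against 3_100 the 95 genes gave 0 calls at the FDR threshold, 1 at the looser criterion and 2 at the unadjusted p, beside 0.373%, 5.09% and 9.89% of all genes. EV against 3_many gave 0, 0 and 1, beside 0.132%, 3.97% and 8.16%, and 3_many against 3_100 gave 0, 0 and 1, beside 0.0156%, 1.28% and 2.84%. In the limma F test over the 4 groups 1 gene, Ndufaf4, passed the FDR threshold (adjusted p = 0.00479) and 2 had an unadjusted p under 0.05, beside 4.48% and 14.7% of all genes. With the replicate block the F test again called Ndufaf4 (adjusted p = 0.00596) and no other member, beside 6.16% of all genes.

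The other 6 assembly factors did not share this. Ndufaf1, Ndufaf2, Ndufaf3, Ndufaf5 and Ndufaf6 reached no unadjusted p of 0.05 against IC. Ndufaf7, a mitochondrial methyltransferase needed to assemble complex I, had 17.9, 16.7 and 15.9 TPM in IC and 15.2, 13.2 and 11.0 TPM in 3_many. These did not overlap, and the log2 fold change was −0.33 (SE 0.123, adjusted p = 0.260). Atp5sl is grouped by its name with ATP synthase, though its protein, now called Dmac2, takes part in the assembly of the distal membrane arm of complex I. It had 12.2, 14.05 and 12.6 TPM in IC, 8.97, 8.26 and 7.56 TPM in 3_100, 11.8, 10.0 and 10.9 TPM in 3_many and 11.2, 12.1 and 10.1 TPM in EV. All treated libraries were below the lowest control library, and the 3_100 libraries were the lowest. Its log2 fold change was −0.57 (SE 0.148, adjusted p = 0.113) in 3_100, −0.21 in 3_many and −0.21 in EV, and its adjusted p in the F test was 0.0979. Of its alternatives for 3_100, a fit of all 12 libraries together gave an adjusted p of 0.0207, the replicate block gave 0.307 and the fits without 1 library gave 0.156 to 0.368. Atp5s, its paralogue, had 4.59, 6.10 and 5.78 TPM in IC and 4.46, 2.32 and 4.22 TPM in 3_many, with a log2 fold change of −0.49 (SE 0.256, adjusted p = 0.405).

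**Figure D4:**
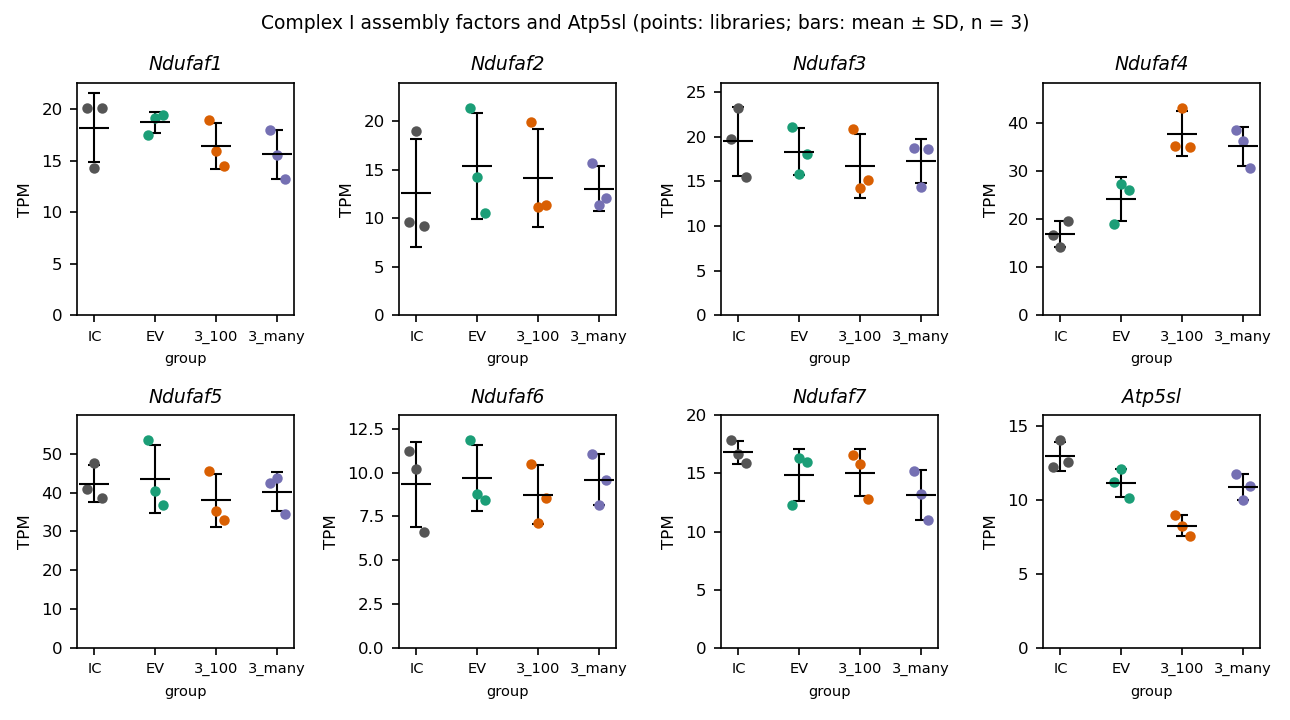
Level in TPM (vertical axes, from 0) of the 7 complex I assembly factors and of Atp5sl in each group, with a point for each library and bars for the mean ± SD (n = 3). For Ndufaf4 the 3_100 libraries (35.1 to 43.2) and the 3_many libraries (30.7 to 38.5) lie above all IC libraries (14.2 to 19.6), and for Atp5sl the 3_100 libraries (7.56 to 8.97) lie below all others.

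Marker sums are given beside this. The 7 astrocyte markers summed to between 801 and 1074 TPM in IC, 1091 and 1467 in EV, 913 and 1381 in 3_100 and 1088 and 1520 in 3_many. The sums of EV and 3_many did not overlap those of IC, but this rests on Gfap, without which the sums overlap. Gfap had 85.1, 361 and 128 TPM in IC, 491, 617 and 362 in EV and 271, 635 and 408 in 3_many. The 10 neuronal markers summed to between 5149 and 5575 TPM in IC, 5024 and 5714 in EV, 4540 and 5562 in 3_100 and 4406 and 5531 in 3_many. No astrocyte or neuronal marker passed the FDR threshold against IC in limma. At an unadjusted p under 0.05 only Gfap did, in EV (log2 fold change 1.58, adjusted p = 1). The 9 oligodendrocyte lineage markers summed to between 219 and 293 TPM in IC, 229 and 272 in EV, 157 and 237 in 3_100 and 277 and 324 in 3_many. Among them Olig1 had a log2 fold change of −0.59 in 3_100 (adjusted p = 0.211) and Olig2 of 0.53 in 3_many (adjusted p = 0.0967). The erythroid markers summed to at most 6.31 TPM, with Hba1 at a log2 fold change of 0.90 in 3_100 (adjusted p = 0.273), the fibroblast markers to at most 1.96 and the endothelial markers to at most 0.673 TPM. The part of cell composition in the Ndufaf4 values was not tested.

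The promoter of Ndufaf4 is shown because this is the gene that passed the test. The 250 bases before its RefSeq start lie at chr5:43401545-43401794 on the plus strand of GRCr8, a build other than the Rnor_6.0 of the files. Capitals mark the matches to the core motif of NRF1 (nuclear respiratory factor 1, an activator of many nuclear genes of the chain), searched as GCGCNTGCG on both strands. The pair of matches overlaps, since this stretch reads the same on both strands.
Ndufaf4: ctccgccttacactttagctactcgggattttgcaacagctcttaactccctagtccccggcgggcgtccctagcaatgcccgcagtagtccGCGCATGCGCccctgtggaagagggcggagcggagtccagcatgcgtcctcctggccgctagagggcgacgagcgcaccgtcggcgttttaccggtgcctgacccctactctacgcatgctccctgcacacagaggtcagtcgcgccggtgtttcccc

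The same motif stands in promoters of member genes that did not pass the test, among them genes of complexes other than complex I. For 4 roles an example is shown, with 30 bases around the match and the motif in capitals, written along the gene's strand. Each is the member of highest level in its role among those for which these 30 bases lie wholly before the start, and in the remaining roles no member besides Ndufaf4 met this. Atp5i lies at chr14:1464774-1464803 (plus strand), Ndufs5 at chr5:141264511-141264540 (minus), Sdhd at chr8:59850702-59850731 (minus) and Uqcrc1 at chr8:118468149-118468178 (plus).
Atp5i: ttgcgctacgGCGCATGCGCtttcctggct
Ndufs5: ccgctggctgCGCAGGCGCaaaccgctctg
Sdhd: cactggagtaCGCACGCGCggtggcagagc
Uqcrc1: cttccttacaGCGCCTGCGcctcatactcc

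Windows of 300 bases (250 before and 50 after the start) were found for 72 of the 82 tested nuclear genes. Of these, 19 held the motif (26.4%), beside 1740 of all 27457 promoters in the table (6.34%). It was found for 7 of 15 genes of ATP synthase, 5 of 22 accessory subunits, 2 of 6 assembly factors, 2 of 4 complex II genes, 2 of 6 complex III genes, 1 of 13 complex IV genes and 0 of 6 core subunits of complex I. A match is a description of the letters and not a binding site.

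Genes around the chain were read from lists written from general knowledge. Earlier results of these data were known when the lists were written, so a call from them is not an independent finding. Of 22 genes of mitochondrial biogenesis and mtDNA expression, 1 passed the FDR threshold in 3_many (higher) and none in EV or 3_100. At an unadjusted p under 0.05, 1 was higher in EV, 4 were higher and 1 lower in 3_100, and 5 were higher in 3_many. Over all genes 2.97%, 17.2% and 16.9% passed that p in either direction, and 1.85% the FDR threshold in 3_many, so 5 of 22 genes in 3_100 and in 3_many lies near the share of all genes. The gene that passed was Pprc1, a coactivator related to PGC-1α. It had 14.03, 15.9 and 13.8 TPM in IC, 25.9, 23.0 and 22.3 TPM in 3_100, 25.4, 25.0 and 21.97 TPM in 3_many and 18.6, 21.1 and 18.3 TPM in EV. All treated libraries were above all control libraries. Pprc1 rose by a log2 fold change of 0.71 (SE 0.118, adjusted p = 0.0471) in 3_many, where the replicate block gave an adjusted p of 0.108. In 3_100 its value was 0.70 (adjusted p = 0.0524), and in EV 0.37 (adjusted p = 1). Leaving out 1 library at a time moved its adjusted p in 3_many between 0.0383 and 0.240, and only 1 of the 6 fits stayed under 0.05. Nrf1 itself had log2 fold changes of 0.73 (adjusted p = 0.0877) in 3_100 and 0.59 (adjusted p = 0.160) in 3_many. Ppargc1a, which encodes PGC-1α, had between 4.09 and 14.2 TPM in IC, a range that held all 9 treated libraries. Tfam, which packages mtDNA, had means of 50.7 ± 9.10 TPM in IC and 50.6 ± 7.71 in 3_100.

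Of 45 assembly factors and electron carriers that the names of the chain genes do not cover, 41 were tested. In 3_100 and in 3_many 1 of them passed the FDR threshold, beside 2.85% and 1.85% of all genes, and it was Coq10b, which binds coenzyme Q and aids its function in the chain. It had 19.5, 17.1 and 15.2 TPM in IC, 45.4, 60.4 and 65.9 TPM in 3_100, 39.6, 44.2 and 49.6 TPM in 3_many and 20.5, 30.7 and 25.6 TPM in EV. The 3_100 and 3_many libraries were above all others, and those of EV lay above IC. Coq10b rose by a log2 fold change of 1.69 (SE 0.192, adjusted p = 0.00986) in 3_100 and of 1.33 (SE 0.157, adjusted p = 0.0191) in 3_many. With the replicate block the adjusted p was 0.0636 in 3_100 and 0.0681 in 3_many, and without each library in turn it passed in 4 of 6 fits for 3_100 and in 2 of 6 for 3_many. In EV the log2 fold change was 0.52 (adjusted p = 1). At an unadjusted p under 0.05, 1 gene of the list was higher in EV, 3 were higher and 1 lower in 3_100, and 2 were higher and 2 lower in 3_many, beside the same 2.97%, 17.2% and 16.9% of all genes. One of these was Cycs, cytochrome c, with log2 fold changes of 0.41 (adjusted p = 0.129) in 3_100 and 0.25 (adjusted p = 0.277) in 3_many.

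Of 18 genes of pyruvate dehydrogenase and the citric acid cycle 15 were tested, and none reached an unadjusted p of 0.05 against IC in limma. Of 17 mitochondrial carriers and uncoupling proteins none passed the FDR threshold. At an unadjusted p under 0.05, 1 was lower in each comparison, namely the aspartate-glutamate carrier Slc25a12 (log2 fold change −0.36 in EV, −0.49 in 3_100 and −0.39 in 3_many). Over all genes 2.97%, 17.2% and 16.9% passed that p in either direction in EV, 3_100 and 3_many. The calcium uniporter Mcu was higher in 3_100 at 0.50 (adjusted p = 0.127). Of 13 genes of the mitochondrial stress response 9 were tested. In 3_100 1 passed the FDR threshold and 4 were higher at an unadjusted p under 0.05, in 3_many 3 were higher at that p and in EV none. The shares of all genes were 2.85% at the FDR threshold in 3_100, and 17.2%, 16.9% and 2.97% at the unadjusted p in 3_100, 3_many and EV. The gene that passed was Atf4, the transcription factor of the integrated stress response, with 204, 235 and 179 TPM in IC and 368, 342 and 287 TPM in 3_100. All 3_100 libraries were above the control. It rose there by a log2 fold change of 0.71 (SE 0.124, adjusted p = 0.0385), a call that 1 of the 6 fits without a library kept and that the replicate block did not (adjusted p = 0.182). In 3_many its value was 0.58 (adjusted p = 0.079).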

How the data were processed

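The 12 deposited tables hold 32285 rows by gene symbol, 1 value per row and library. Per the paper's methods the authors used Trimmomatic and Cutadapt for trimming, then Salmon for transcript levels and tximport for the sum per gene, and the submitters' notes name the build Rnor_6.0. No header names the unit. The values carry decimals and have the same total in every table, as TPM does, so they were taken as TPM, as the authors deposited them. TPM holds no read depth, so no counting interval can be given. The labels and the paper differ in pup age, library kit and sequencer.

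Rows of one name were summed (5 members had 2 rows each). For each comparison TPM was rescaled by median-of-ratios factors within its 6 libraries, and genes with a mean TPM of 1 or more over the 12 libraries were tested as log2(TPM + 1) in limma 3.58.1 (R 4.3.3, eBayes with a mean-variance trend, Benjamini-Hochberg adjustment over 12861 genes). The fold changes stand on that scale and understate changes of low genes. Standard errors and 95% intervals are limma's. The procedure was tested on simulated data. The members and lists were chosen with earlier results of these data known. Named are all mitochondrial genes, nuclear genes that pass the FDR threshold, up to 3 extremes each way per comparison with IC at an unadjusted p under 0.05, the highest gene of each complex, fixed isoform pairs and the 5 lowest p-values of the F test. Ndufs1, Uqcrc2, Sdha, Ndufb5 and Ndufa1 were added after their values were seen.

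Replicate numbers come from the labels, which do not say what a number marks. Deviations from the group mean correlated between same-numbered libraries at between 0.13 and 0.22 for 3_many and IC, and above 0.1 in each of the 3 comparisons between treated groups, so these were read as paired. For EV and IC they lay between −0.15 and 0.45, and for 3_100 and IC between −0.21 and 0.21. These comparisons do not show a pairing. The positive values of 3_many with IC and with 3_100 do not carry over to 3_100 and IC, and pairing was not tested. The blocked values of the calls in 3_100 and 3_many against IC are given beside the unblocked ones. The study removed a day covariate before one of its ordinations, and the sources used here do not give the day of each library. Promoters are from RefSeq (GRCr8), matched by symbol or synonym. Those of Atp5h, Atp5sl, Cox6a1, Cox6c, Ndufa8, Ndufaf6, Ndufb9, Ndufv3-ps1 and Uqcrb were among those not matched. Values of 1 core subunit of complex I are not reported here. Atp5f1 has 2 rows of near-equal values, which near-identical copies may share. Alternatives changed scaling, pseudocount, filter, rows, samples in the fit, variance model, pairing and libraries.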

Additional observations from a re-analysis of the deposited data

How the results depend on the processing

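The log2 fold changes of Ndufaf4 kept their direction under each alternative run. Its pairwise calls, though not that of the F test, were lost with the replicate block, where no member passed the FDR threshold in 3_100 against IC (0, adjusted p = 0.107) or 3_many against IC (0), beside 1 each without it. The deviations of 3_100 and IC do not show a pairing. Those of 3_many correlated weakly and positively with each of them, and pairing was not tested. Over all genes the block moved the calls from 367 to 86 in 3_100, from 238 to 87 in 3_many, from 12 to 0 in EV against IC, from 17 to 0 in EV against 3_many, from 48 to 87 in EV against 3_100 and from 2 to 0 in 3_many against 3_100. With 1 library left out they ranged from 68 to 367 in 3_100, from 4 to 377 in 3_many and from 0 to 12 in EV against IC, and 1 fit of all 12 libraries gave 891, 528 and 55. One fit of all 12 libraries gave 2 members at the FDR threshold in 3_100 (Ndufaf4 and Atp5sl). Without the 3 libraries of highest nuclear sum, a choice made after seeing the data, 2 members passed in 3_many, which is the same fit as that without IC replicate 2. Leaving out 1 library at a time gave 0 to 1 members in 3_100 and 0 to 2 in 3_many. In the other 4 comparisons no member passed under any setting.

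By the looser criterion (fold change over 1.5, p before adjustment under 0.05), the count of EV against IC (0) was 2 without the 3 libraries and 0 to 3 with 1 library left out. That of 3_100 against IC (1) was 2 with TPM as deposited, with a pseudocount of 0.1 and without the 3 libraries, and 1 to 3 with 1 library left out. That of 3_many against IC (2) was 1 with a pseudocount of 0.1 or 5, a mean TPM of 5 or more, 1 fit of all 12 libraries or without the 3 libraries, and 1 to 2 with 1 library left out. EV against 3_100 (1) gave 0 with a pseudocount of 5 and 2 without the 3 libraries. EV against 3_many (0) gave 1 with TPM as deposited or no filter, 2 without the 3 libraries, and 0 to 2 with 1 library left out. For 3_many against 3_100 (0) the replicate block gave 1, leaving out the 3 libraries gave 1, and leaving out 1 library gave 0 to 1. The cause was not tested. Over all genes the share at this criterion ranged over the same alternatives from 1.1% to 3.55% in EV against IC, 5.23% to 13% in 3_100, 3.78% to 10.3% in 3_many, 2.55% to 6.56% in EV against 3_100, 1.77% to 6.62% in EV against 3_many and 0.537% to 1.94% in 3_many against 3_100. The share of members was above that of all genes in 0 of these 102 fits. They are not all distinct. Only 1 of the 3 libraries takes part in a comparison with 3_many, so leaving out the 3 equals leaving out 1 there.

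The medians moved from their main values by no more than the pooled SD of the library medians, but their sign turned when 1 library was left out. They ranged from −0.20 to 0.36 (mitochondrial) and −0.22 to 0.21 (nuclear) in EV, −0.06 to 0.38 and −0.17 to 0.15 in 3_100, and −0.03 to 0.41 and −0.19 to 0.15 in 3_many. Taking out the mitochondrial rows before scaling left the nuclear medians below 0. Of 1584 alternative values of the named genes 200 changed sign, 153 of them with 1 library left out. At the FDR threshold the block changed no other call of a member. Of the list genes, Coq10b (adjusted p = 0.0636) and Atf4 (adjusted p = 0.182) also missed the threshold in 3_100 with the replicate block. Unknown depth and 3 libraries per group limit all of these values.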
